A study of Mus musculus with 9 samples.

Results

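The genes that encode the proteins of the mitochondrial ribosome were followed in mouse kidney after cisplatin. Members were taken by symbol: gene identifiers of the deposited files were matched to GENCODE M21, and every protein-coding gene whose symbol starts with Mrpl or Mrps followed by a digit was kept. This gave 78 genes of 55385 identifiers, 49 with an Mrpl symbol (large subunit) and 29 with an Mrps symbol (small subunit). A further 5 entries named as pseudogenes were left out, the highest of which reached 2.82 FPKM in any library. All 78 members reached 1 FPKM in 3 or more of the 9 libraries and so entered the test.

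The study sequenced RNA from whole kidneys of C57BL/6 mice in 3 groups of 3 libraries. The Cis3d group was sampled 3 days and the Cis7d group 7 days after an intraperitoneal injection of cisplatin at 20 mg/kg, and the Sham group received saline in the same volume. No allele, transgene or age is named for any group, and the series gives its libraries as biological repeats without saying whether tissue was pooled. Cisplatin is an anticancer drug built on platinum; it binds DNA, and its main dose limit is damage to renal tubules.

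The mitochondrial ribosome translates the few mRNAs that are transcribed from mitochondrial DNA, all of which encode subunits of the respiratory chain and the ATP synthase. Its rRNAs come from mitochondrial DNA, whereas all its proteins are encoded in the nucleus, made on cytosolic ribosomes and imported. Part of these proteins have bacterial relatives and part are found only in mitochondria. The proximal tubule and the thick ascending limb of the kidney are rich in mitochondria, which fuel their transport of solutes.

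Values are FPKM, in which the fragments of a gene are divided by its transcript length and by the size of its library. They summed to 421810 to 509537 per library. Read depth is unknown, because the files hold no counts, and no counting interval is given. Transcripts of mitochondrial DNA took 27.1% to 31.8% of the FPKM at day 3, 31.7% to 32.6% at day 7 and 25.6% to 27.3% in sham. The summed FPKM of 11 proximal tubule markers was 136.0 to 415.4 at day 3, 2318 to 2672 at day 7 and 1855 to 3922 in sham, and all 11 markers were lower at day 3 than in sham, as were 5 of 5 markers of the thick ascending limb. The summed FPKM of 4 markers of injured tubule was 1138 to 1653 at day 3, 4.64 to 80.3 at day 7 and 3.71 to 39.9 in sham. No marker list had a gene at 0 in all libraries of a group. In a whole kidney, fewer cells of a type and less RNA per cell cannot be told apart, and the part of cell composition in the results below was not tested.

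Members covered a wide range of levels. Group mean FPKM of the Mrpl genes ran from 2.06 to 53.3 at day 3, from 2.85 to 78.0 at day 7 and from 2.29 to 94.8 in sham. Group means of the Mrps genes ran from 4.15 to 67.4 at day 3, from 3.06 to 90.3 at day 7 and from 2.83 to 104.2 in sham. Summed over the 49 Mrpl genes, the libraries had 914.3, 879.0 and 798.5 FPKM at day 3, 894.8, 918.9 and 908.5 at day 7 and 1059, 1105 and 992.3 in sham. The summed FPKM of each day 3 and day 7 library thus lay below all sham libraries, but as a share of the FPKM outside mitochondrial DNA the groups overlapped (0.233% to 0.297% at day 3, 0.279% to 0.303% at day 7 and 0.286% to 0.302% in sham). Summed over the 29 Mrps genes, the libraries had 463.6, 463.0 and 416.3 FPKM at day 3, 514.0, 479.9 and 477.6 at day 7 and 643.9, 545.6 and 488.7 in sham. The day 3 sums lay below all sham sums, while day 7 and sham overlapped. As a share of the FPKM outside mitochondrial DNA all 3 groups overlapped (0.122% to 0.151% at day 3, 0.153% to 0.160% at day 7 and 0.141% to 0.174% in sham). By symbol, the mean FPKM of an Mrpl gene over that of an Mrps gene was 1.12 to 1.17 at day 3, 1.03 to 1.13 at day 7 and 0.973 to 1.20 in sham, and all 6 treated libraries lay within the range of sham. The ratio of the median FPKM of Mrpl to that of Mrps genes was 1.49 to 1.54 at day 3, 1.30 to 1.47 at day 7 and 1.30 to 1.43 in sham, and by this measure all day 3 libraries lay above all sham libraries. The Mrps genes of both ratios include Mrps18a, Mrps30 and Mrps36, whose products lie outside the small subunit.

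At day 3 the members divided into genes below sham and genes above it. Of the 78, 27 were lower, 15 were higher and 36 did not pass (limma, adjusted p under 0.05). Over all 13718 genes tested, 20.6% were lower and 39.3% higher. By symbol, 15 of 49 Mrpl genes were lower and 9 higher, and 12 of 29 Mrps genes were lower and 6 higher. The median log2 fold change was -0.17 for Mrpl and -0.22 for Mrps genes, beside 0.25 for all genes tested, and the middle 50% of members lay between -0.59 and 0.26. By place, Mrps18a and Mrps30 count as large-subunit genes and Mrps36 is left out. Of 51 large-subunit genes 15 were then lower and 10 higher (median -0.16). Of 26 small-subunit genes 11 were lower and 5 higher (median -0.30). The difference between the subunits was not tested. The groups did not overlap for 20 Mrpl genes that were lower and 11 that were higher, and for 13 and 7 Mrps genes, beside 21.8% lower and 42.1% higher of all genes.

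The median of all genes is itself set by the scale. With FPKM rescaled by median-of-ratios factors it moved by over 0.1, to 0.03, and the member medians moved to -0.43 (Mrpl) and -0.48 (Mrps). On that scale 27 Mrpl genes were lower and 5 higher, and 17 Mrps genes were lower and 4 higher, beside 28.8% lower and 29.8% higher of all genes. Both scales placed the member medians below the median of all genes. Without Cis3d replicate 1, the Mrps median was -0.34, without Cis3d replicate 3 it was -0.12 and without Sham replicate 1 it was -0.13.

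**Figure D1:**
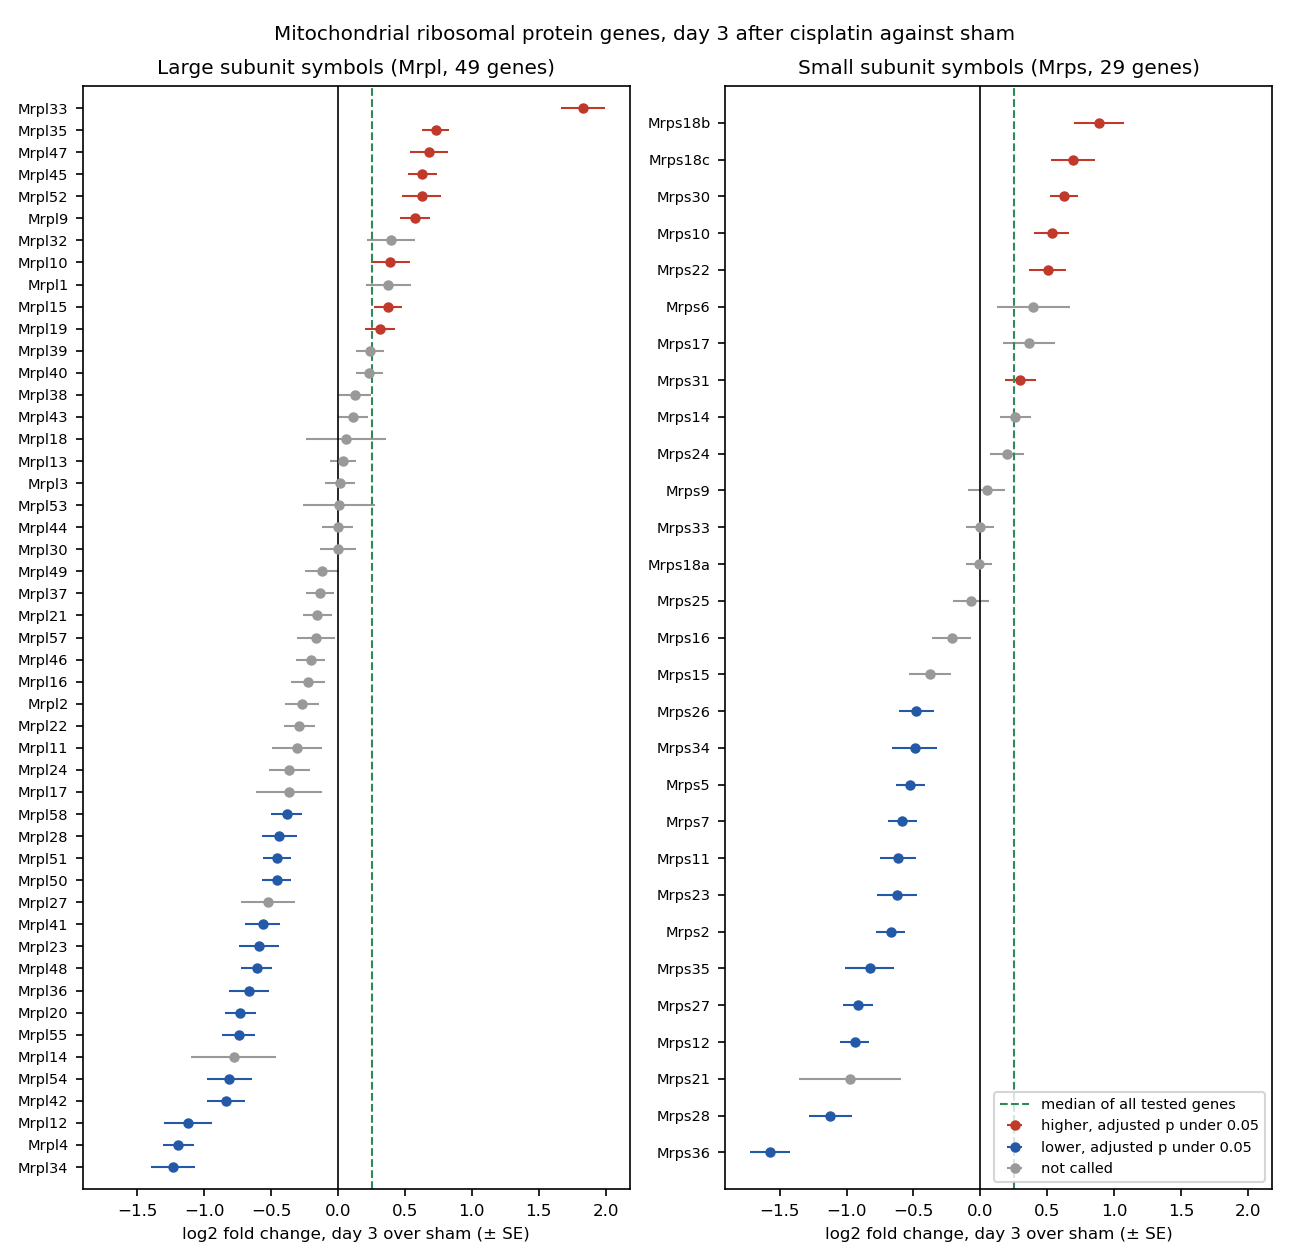
Log2 fold change, day 3 over sham, of each mitochondrial ribosomal protein gene (points, with bars of ± 1 standard error), large-subunit symbols on the left and small-subunit symbols on the right, ordered by value. The genes run from -1.57 (Mrps36) to 1.83 (Mrpl33), and most points lie left of the dashed line at 0.25, the median of all genes tested.

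Called falls of more than 1 on the log2 scale were seen in 5 of the 78 members. Over all 13718 genes tested, 1284 had a called fall of that size. Mrpl34 (chromosome 8, 71464959 to 71465747, GRCm38), which encodes a small protein with a bacterial relative, had 33.92, 22.73 and 22.14 FPKM at day 3, 57.96, 53.5 and 52.94 at day 7 and 59.28, 67.58 and 59.39 in sham. All day 3 libraries lay below the others, and day 7 lay just below sham. The log2 fold change was -1.23 ± 0.16 (SE, adjusted p = 0.000253) at day 3 and -0.18 ± 0.16 (adjusted p = 0.451) at day 7. Mrpl12 (chromosome 11, 120484613 to 120489065), whose product is the stalk protein that also binds the mitochondrial RNA polymerase, had 56.48, 40.03 and 34.79 FPKM at day 3, 75.21, 74.97 and 83.92 at day 7 and 83.71, 105.76 and 95.02 in sham. It was the most abundant Mrpl gene in sham, and its day 3 libraries lay apart from the rest, while day 7 and sham overlapped. It fell by 1.12 ± 0.18 at day 3 (adjusted p = 0.000694), and at day 7 the difference was -0.27 ± 0.18 (adjusted p = 0.277).

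Mrpl4 (chromosome 9, 21002738 to 21008839), related to the bacterial protein that lines the exit tunnel, had 13.02, 13.52 and 11.44 FPKM at day 3, 16.64, 14.02 and 16.49 at day 7 and 28.01, 33.06 and 29.66 in sham. Both treated groups lay below every sham library. It fell by 1.19 ± 0.12 at day 3 (adjusted p = 5.69e-05) and by 0.90 ± 0.12 at day 7 (adjusted p = 0.00182). Mrps28 (chromosome 3, 8802146 to 8923918), a small-subunit protein, had 9.53, 7.31 and 6.05 FPKM at day 3, 13.81, 12.88 and 11.25 at day 7 and 16.78, 19.67 and 16.29 in sham. The 3 groups did not overlap. It fell by 1.12 ± 0.16 at day 3 (adjusted p = 0.000405), and the day 7 difference of -0.45 ± 0.16 had an adjusted p of 0.0675.

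The largest fall of all was that of Mrps36 (chromosome 13, 100735955 to 100744659), a gene whose symbol names it for the ribosome but whose product is a component of the 2-oxoglutarate dehydrogenase complex of the citric acid cycle. It had 13.84, 10.87 and 8.99 FPKM at day 3, 28.89, 29.64 and 32.56 at day 7 and 33.34, 37.58 and 33.87 in sham. The day 3 values were the lowest, and day 7 lay below sham without overlap. It fell by 1.57 ± 0.15 at day 3 (adjusted p = 4.68e-05), against -0.20 ± 0.15 at day 7 (adjusted p = 0.352).

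Among the other lower members, Mrps12 (chromosome 7, 28739641 to 28741820), which encodes a protein of the decoding centre, had 10.94, 11.16 and 12.02 FPKM at day 3, 15.46, 12.97 and 14.39 at day 7 and 20.71, 23.4 and 24.1 in sham. The 3 groups did not overlap, and the fall was 0.94 ± 0.11 at day 3 (adjusted p = 0.000126) and 0.64 ± 0.11 at day 7 (adjusted p = 0.00408). Mrps27 (chromosome 13, 99344786 to 99415562), a pentatricopeptide repeat protein of the small subunit, had 8.57, 7.14 and 6.64 FPKM at day 3, 13.4, 13.88 and 13.36 at day 7 and 14.67, 16.1 and 13.85 in sham. Day 3 stood apart, with a fall of 0.91 ± 0.11 (adjusted p = 0.000197), and day 7 overlapped sham (-0.12 ± 0.11, adjusted p = 0.452). Mrpl42 (chromosome 10, 95480805 to 95501940), a protein found only in mitochondria, had 17.26, 14.52 and 12.54 FPKM at day 3, 24.46, 26.74 and 22.7 at day 7 and 23.66, 29.84 and 27.93 in sham. Here too day 3 stood apart from both other groups (fall of 0.84 ± 0.14, adjusted p = 0.00101).

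Mrps7 and Mrps11, small-subunit proteins with bacterial relatives, were lower at both times. Mrps7 (chromosome 11, 115603925 to 115608036) had 35.44, 37.89 and 32.21 FPKM at day 3, 38, 39.85 and 39.48 at day 7 and 53.75, 56.9 and 48.82 in sham. Mrps11 (chromosome 7, 78783119 to 78792989) had 9.47, 9.8 and 9.17 FPKM at day 3, 9.59, 11.73 and 9.43 at day 7 and 14.01, 17.82 and 13.66 in sham. In both genes all sham libraries lay above all treated ones, and the falls were 0.58 ± 0.11 (Mrps7, adjusted p = 0.00139) and 0.62 ± 0.13 (Mrps11, adjusted p = 0.0035) at day 3. Mrpl58 (chromosome 11, 115403752 to 115412674) encodes a peptidyl-tRNA hydrolase built into the large subunit that can free stalled ribosomes. It had 5.11, 5.36 and 4.48 FPKM at day 3, 5.39, 5.22 and 5.14 at day 7 and 6.41, 7.78 and 6.26 in sham, with both treated groups below sham. It fell by 0.38 ± 0.11 at day 3 (adjusted p = 0.0174). That call was lost without Sham replicate 2 (adjusted p = 0.0691), without Cis3d replicate 3 (adjusted p = 0.0637) and after removal of the trends with GC content and length (adjusted p = 0.0713).

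Promoters are shown for 3 of the members that fell, chosen because each holds a match to a motif of factors known to act on nuclear genes of mitochondria. Each is a RefSeq window on GRCm38.p6 from 250 bases before to 50 bases after the start, on the strand of the gene. Capitals mark matches to motifs on either strand, where a match on the other strand reads as the reverse complement. They are the NRF1 motif, GCGCA and GCGC with any 1 base between (Mrpl12, on the other strand), the ETS motif CCGGAAG of the GABP family (Mrpl34, and on the other strand Mrps27) and the YY1 motif AAGATGG (Mrps27).
Mrpl12 (chr11:120484387-120484686, plus strand): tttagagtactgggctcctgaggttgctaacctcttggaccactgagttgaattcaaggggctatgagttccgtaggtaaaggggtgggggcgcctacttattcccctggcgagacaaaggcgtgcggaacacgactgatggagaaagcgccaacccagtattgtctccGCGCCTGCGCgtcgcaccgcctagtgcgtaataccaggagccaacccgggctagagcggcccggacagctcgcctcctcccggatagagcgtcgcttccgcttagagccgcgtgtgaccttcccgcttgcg
Mrpl34 (chr8:71464676-71464975, plus strand): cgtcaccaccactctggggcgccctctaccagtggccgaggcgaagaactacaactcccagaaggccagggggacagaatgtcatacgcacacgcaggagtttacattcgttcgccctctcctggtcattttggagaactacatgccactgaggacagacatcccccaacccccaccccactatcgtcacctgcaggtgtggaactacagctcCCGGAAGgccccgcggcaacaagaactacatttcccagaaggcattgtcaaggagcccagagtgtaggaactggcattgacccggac
Mrps27 (chr13:99344536-99344835, plus strand): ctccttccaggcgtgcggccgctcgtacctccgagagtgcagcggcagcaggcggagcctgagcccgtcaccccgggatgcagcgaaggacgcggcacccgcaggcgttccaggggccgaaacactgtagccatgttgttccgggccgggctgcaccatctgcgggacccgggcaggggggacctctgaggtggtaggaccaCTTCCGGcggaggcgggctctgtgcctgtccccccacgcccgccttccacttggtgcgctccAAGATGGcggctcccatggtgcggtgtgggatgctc

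Apart from that of Mrpl33, no rise at day 3 reached 1 on the log2 scale, while 2347 of the 13718 genes tested had a called rise of that size. Mrpl33 (chromosome 5, 31596935 to 31664384), which encodes a small protein with a bacterial relative, had 14.99, 12.41 and 11.58 FPKM at day 3, 3.19, 4.32 and 2.75 at day 7 and 3.21, 3.1 and 2.46 in sham. Day 3 lay far above both other groups, which overlapped each other. The log2 fold change was 1.83 ± 0.16 (adjusted p = 3.43e-05) at day 3, a 4.44-fold ratio of means, and 0.16 ± 0.16 (adjusted p = 0.488) at day 7. Its gene model overlaps that of Rbks on the opposite strand, which encodes ribokinase and fell by 1.18 at day 3 (adjusted p = 0.000796).

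Mrpl35 (chromosome 6, 71812997 to 71826969), also with a bacterial relative, had 11.61, 12.72 and 10.48 FPKM at day 3, 8.03, 7.33 and 7.51 at day 7 and 6.55, 6.71 and 6.48 in sham. The 3 groups did not overlap, and it rose by 0.73 ± 0.10 at day 3 (adjusted p = 0.000349). Mrpl45 (chromosome 11, 97315716 to 97329920), a protein found only in mitochondria that sits at the exit of the tunnel by the inner membrane, had 32.7, 29.68 and 27.34 FPKM at day 3, 18.24, 20.02 and 18.97 at day 7 and 18.68, 20.5 and 17.72 in sham. It rose by 0.63 ± 0.11 at day 3 (adjusted p = 0.00105), with day 7 and sham at the same level (0.01 ± 0.11, adjusted p = 0.961).

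Mrpl47 (chromosome 3, 32725397 to 32737605), with a bacterial relative near the tunnel exit, had 5.7, 6.18 and 5.6 FPKM at day 3, 5.95, 5.78 and 4.88 at day 7 and 4.12, 3.13 and 2.64 in sham. Both treated groups lay above sham, with rises of 0.68 ± 0.14 at day 3 (adjusted p = 0.00307) and 0.62 ± 0.14 at day 7 (adjusted p = 0.0134). The day 7 call was lost without Cis7d replicate 1 (adjusted p = 0.0511) and after removal of the GC content and length trends (0.33, adjusted p = 0.217). Mrpl52 (chromosome 14, 54426909 to 54429756), found only in mitochondria, was called in opposite directions at the 2 times. It had 30.22, 33.99 and 28.43 FPKM at day 3, 11.76, 11.79 and 9.25 at day 7 and 22.33, 20.22 and 16.64 in sham, so that sham lay between the 2 treated groups. It rose by 0.63 ± 0.15 at day 3 (adjusted p = 0.00528) and fell by 0.79 ± 0.15 at day 7 (adjusted p = 0.00531), and the day 7 call was lost after removal of the GC content and length trends (-0.41, adjusted p = 0.11).

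The 3 Mrps18 paralogues, all related to a single bacterial small-subunit protein, are given side by side. Mrps18b (chromosome 17, 35910379 to 35916389) encodes a small-subunit protein and had 28.63, 38.36 and 31.95 FPKM at day 3, 13.61, 13.52 and 12.75 at day 7 and 23.3, 15.61 and 14.06 in sham. It rose by 0.89 ± 0.19 at day 3 (adjusted p = 0.00307), and at day 7 its libraries lay just below sham (-0.35 ± 0.19, adjusted p = 0.183). Mrps18c (chromosome 5, 100798627 to 100804471), the small-subunit copy in the bacterial position, had 25.97, 27.29 and 22.43 FPKM at day 3, 20.45, 21.67 and 16.52 at day 7 and 18.25, 15.42 and 12.41 in sham. It rose by 0.69 ± 0.16 at day 3 (adjusted p = 0.00566) and overlapped sham at day 7 (0.34 ± 0.16, adjusted p = 0.152).

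Mrps18a (chromosome 17, 46110986 to 46128910), whose product sits in the large subunit despite its symbol, had 14.03, 14.83 and 15.81 FPKM at day 3, 12.24, 11.99 and 13.08 at day 7 and 14.14, 15.01 and 15.93 in sham. Day 3 and sham covered nearly the same range (-0.01 ± 0.10, adjusted p = 0.922), and day 7 lay below both (-0.25 ± 0.10 against sham, adjusted p = 0.0827). Rsph9, which overlaps Mrps18a on the opposite strand, fell by 1.72 at day 3 (adjusted p = 9.21e-05). Mrps30 (chromosome 13, 118378381 to 118387252), the other large-subunit protein with an Mrps symbol, had 6.28, 7.6 and 7.3 FPKM at day 3, 4.22, 4.4 and 4.57 at day 7 and 4.38, 4.32 and 3.92 in sham. It rose by 0.63 ± 0.11 at day 3 (adjusted p = 0.000927), a call that was lost after removal of the GC content and length trends (0.27, adjusted p = 0.0702), and day 7 overlapped sham.

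Mrps22 (chromosome 9, 98588730 to 98601660), a small-subunit protein found only in mitochondria, had 4.72, 6.37 and 5.97 FPKM at day 3, 6.5, 6.63 and 6.16 at day 7 and 3.07, 4.42 and 3.69 in sham. All treated libraries lay above all sham libraries, with rises of 0.50 ± 0.14 at day 3 (adjusted p = 0.0137) and 0.66 ± 0.14 at day 7 (adjusted p = 0.00995). The day 3 call was lost without Cis3d replicate 2 (adjusted p = 0.0523) and on the median-of-ratios scale (0.26, adjusted p = 0.196).

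Mrps21 (chromosome 3, 95862634 to 95871519), with a bacterial relative, was the most abundant small-subunit gene in sham and had the largest standard error of the members at day 3. It had 71.92, 32.32 and 53.09 FPKM at day 3, 114.95, 56.56 and 99.28 at day 7 and 152.72, 85.8 and 73.96 in sham. All day 3 libraries lay below all sham libraries, yet the difference of -0.98 ± 0.38 had an adjusted p of 0.0528. On the median-of-ratios scale it was -1.27 (adjusted p = 0.0193).

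Promoters of 3 members that rose are shown to set beside those of the members that fell. Each comes from RefSeq on GRCm38.p6 and covers the same 300 bases around the start, with capitals for the NRF1 motif (Mrpl45, 3 matches on either strand) and the ETS motif (Mrpl33, and on the other strand Mrps18b). The Mrpl33 window lies inside the longer GENCODE model given above.
Mrpl33 (chr5:31613701-31614000, plus strand): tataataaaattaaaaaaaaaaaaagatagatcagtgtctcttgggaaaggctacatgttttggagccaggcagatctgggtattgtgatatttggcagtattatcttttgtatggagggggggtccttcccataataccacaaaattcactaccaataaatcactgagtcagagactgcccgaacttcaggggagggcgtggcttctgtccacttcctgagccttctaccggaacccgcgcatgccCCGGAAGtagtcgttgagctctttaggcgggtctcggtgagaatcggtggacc
Mrpl45 (chr11:97315466-97315765, plus strand): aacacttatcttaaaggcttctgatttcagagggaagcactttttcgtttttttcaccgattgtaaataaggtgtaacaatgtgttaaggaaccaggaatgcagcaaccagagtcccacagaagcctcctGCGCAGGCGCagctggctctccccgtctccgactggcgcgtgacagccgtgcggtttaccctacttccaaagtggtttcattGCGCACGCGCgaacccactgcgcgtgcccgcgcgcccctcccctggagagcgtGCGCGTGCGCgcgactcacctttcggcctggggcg
Mrps18b (chr17:35916391-35916690, minus strand): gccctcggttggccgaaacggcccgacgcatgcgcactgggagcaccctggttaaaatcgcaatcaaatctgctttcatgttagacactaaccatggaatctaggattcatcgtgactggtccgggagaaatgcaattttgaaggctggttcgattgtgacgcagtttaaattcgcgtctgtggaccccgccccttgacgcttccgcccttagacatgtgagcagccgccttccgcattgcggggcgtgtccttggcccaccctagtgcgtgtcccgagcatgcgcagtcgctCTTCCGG

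Of the 78 members, 69 had a promoter in the RefSeq table, and each motif was searched on both strands, with matches of different motifs counted whether or not they overlapped. NRF1 stands for nuclear respiratory factor, and GABP of the ETS family is the other factor long known to act on genes of the respiratory chain. A gene with several promoters was counted once, as holding a motif if any of them did. The NRF1 motif was found in 13 members (18.8%, beside 5.2% of all 27025 genes with a promoter and 11.2% of the tested ones). The ETS motif was found in 26 (37.7%, beside 9.9% and 20.0%) and the YY1 motif in 13 (18.8%, beside 7.3% and 8.5%). The SP1 motif GGGCGG was found in 34 (49.3%, beside 38.2% and 67.7%), CCAAT in 27 (39.1%, beside 41.1% and 41.9%) and TATAAA in 5 (7.2%, beside 15.7% and 9.1%).

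Among the promoters printed here, the ETS motif stands in members that rose and members that fell, and so does the NRF1 motif. The printed members that fell were chosen for holding a match, and each printed member that rose holds a match too. These promoters therefore cannot show whether direction at day 3 follows a motif. The median log2 fold change at day 3 was -0.0027 in the 13 members with the NRF1 motif and -0.21 in the 56 without it. It was -0.19 in the 26 members with the ETS motif and -0.13 in the 43 without it. These splits are descriptions and were not tested.

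**Figure D2:**
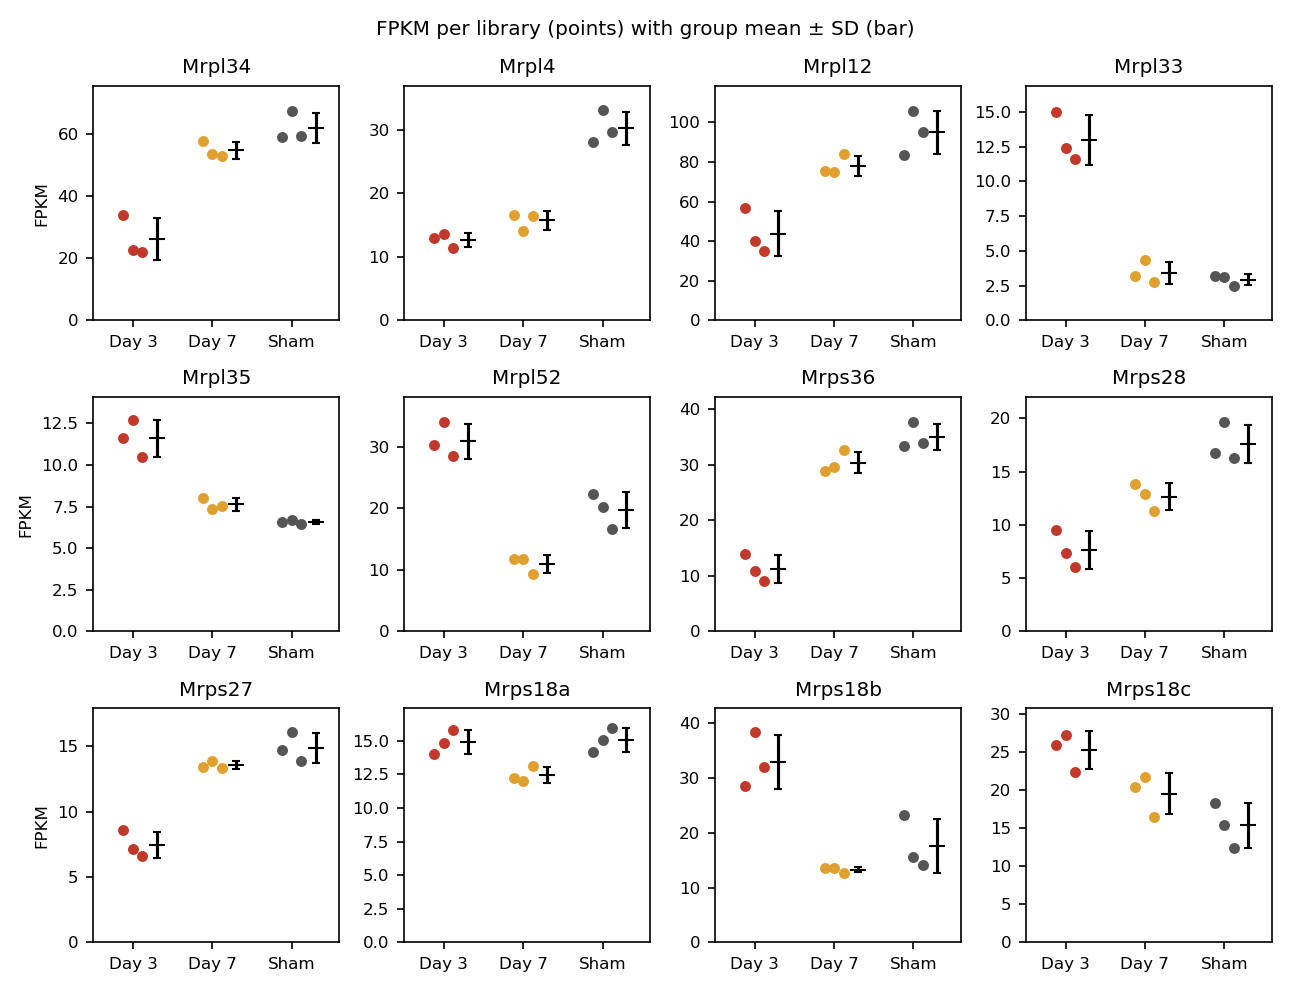
FPKM of 12 members in each library (points) at day 3, day 7 and in sham, with the group mean ± SD beside them (bars); each panel starts at 0. Mrpl34, Mrpl12, Mrps36 and Mrps27 are lowest at day 3, and at day 7 Mrpl34 and Mrps36 lie just below sham without overlap. Mrpl4 is low at both times, Mrpl33 is high at day 3 alone, and Mrpl52 lies on opposite sides of sham at the 2 times.

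At day 7 fewer members differed from sham. Of the 78, 11 were lower, 8 were higher and 59 did not pass, while 10.4% of all genes were lower and 19.3% higher. By symbol, 7 Mrpl genes were lower and 6 higher, and 4 Mrps genes were lower and 2 higher. Median log2 fold changes were -0.18 (Mrpl) and -0.12 (Mrps), beside 0.06 for all genes. The Mrpl median came to -0.11 without Sham replicate 2, and the Mrps median to -0.016 without Sham replicate 1, and after removal of the GC content and length trends they were 0.00 and -0.03. On the median-of-ratios scale 15 Mrpl genes were lower and 6 higher, and 7 Mrps genes were lower and 2 higher, beside 16.2% lower and 16.4% higher of all genes. The groups did not overlap for 20 Mrpl genes that were lower and 11 that were higher, and for 9 and 3 Mrps genes, beside 19.1% lower and 29.5% higher of all genes.

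Mrpl1 (chromosome 5, 96209493 to 96266727), whose bacterial relative forms the stalk at the exit site for tRNA, had 4.97, 3.62 and 3.67 FPKM at day 3, 6.08, 6.99 and 6.02 at day 7 and 3.7, 2.87 and 2.23 in sham. Day 7 lay above both other groups, which overlapped, and it rose by 0.92 ± 0.16 at day 7 (adjusted p = 0.005), against 0.38 ± 0.16 at day 3 (adjusted p = 0.0761). The day 7 call was lost after removal of the GC content and length trends (0.44, adjusted p = 0.144). Mrpl50 and Mrpl3 were chosen after their values were seen. Mrpl50, a large-subunit protein found only in mitochondria, had 18.85, 18.75 and 16.61 FPKM at day 3, 38.84, 42.27 and 37.44 at day 7 and 23.68, 23.89 and 28.21 in sham, and was thus lower than sham at day 3 (-0.46 ± 0.11, adjusted p = 0.00676) and higher at day 7 (0.63 ± 0.11, adjusted p = 0.00484). Mrpl3, with a bacterial relative in the catalytic subunit, had 4.4, 3.99 and 4.73 FPKM at day 3, 6.53, 6.74 and 7.31 at day 7 and 3.8, 4.59 and 4.56 in sham, and rose at day 7 (0.57 ± 0.11, adjusted p = 0.00688). The day 7 calls of both were lost after removal of the GC content and length trends (Mrpl50 0.28, adjusted p = 0.124, and Mrpl3 0.26, adjusted p = 0.166).

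Of the day 3 falls described above, those of Mrpl4, Mrps12, Mrps11 and Mrps7 were also called at day 7. The day 7 falls were 0.52 ± 0.13 for Mrps11 (adjusted p = 0.0193) and 0.43 ± 0.11 for Mrps7 (adjusted p = 0.0165). The Mrps11 call was lost without Sham replicate 2 (adjusted p = 0.0663), Cis7d replicate 1 (adjusted p = 0.0691) or Cis7d replicate 3 (adjusted p = 0.0705), and the Mrps7 call without Sham replicate 2 (adjusted p = 0.0648), Cis7d replicate 1 (adjusted p = 0.0623) or Cis7d replicate 3 (adjusted p = 0.0517). The count of lower Mrps genes at day 7 came to 1 when each of these 3 libraries was left out in turn, against 4 with all. The count of lower Mrpl genes came to 4 without Cis7d replicate 1, against 7 with all. Shares of all genes called with a library left out are not given beside these counts.

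**Figure D3:**
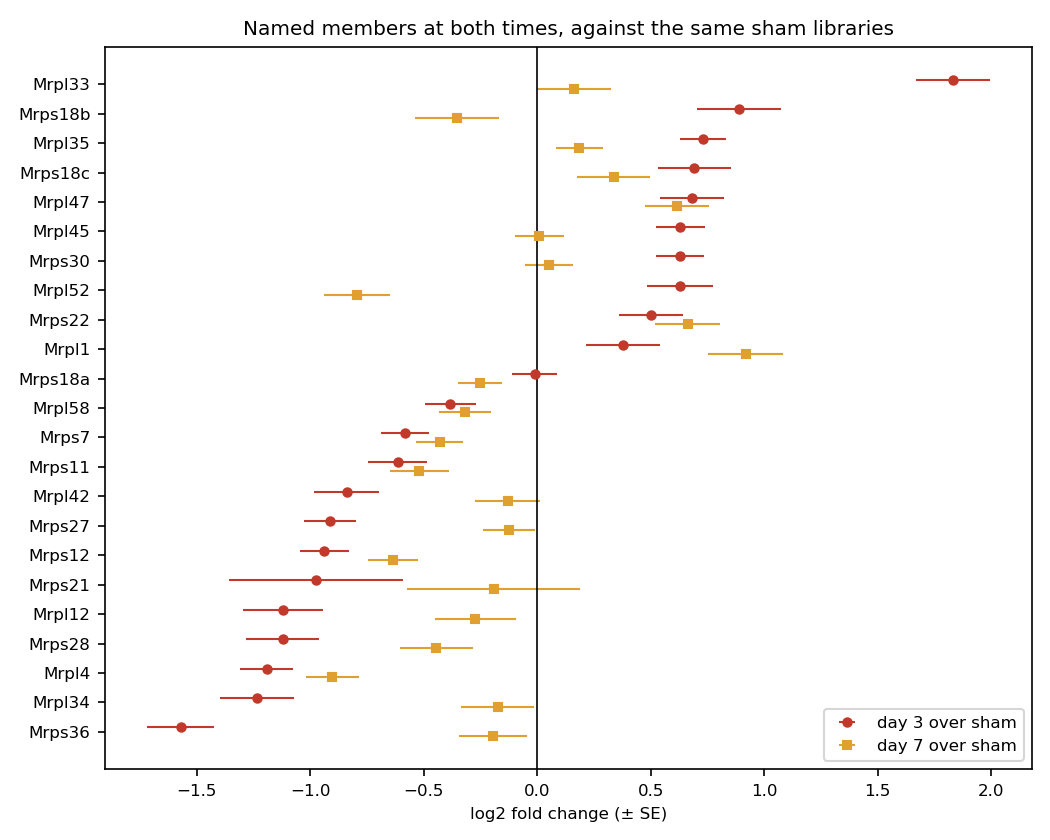
Log2 fold changes over sham of the 23 members chosen for full description, at day 3 (circles) and at day 7 (squares), with bars of ± 1 standard error; both use the same 3 sham libraries. Mrpl33 lies at 1.83 at day 3 and 0.16 at day 7, Mrps36 at -1.57 and -0.20, and Mrpl4 stays low at both times (-1.19 and -0.90).

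Set against day 3 directly, 18 members were higher at day 7, 14 were lower and 46 did not pass, beside 21.7% of all genes higher and 33.7% lower. Among Mrpl genes 10 were higher and 9 lower, and among Mrps genes 8 were higher and 5 lower, with medians of 0.07 and 0.10 beside -0.16 for all genes. The Mrpl median came to 0.0037 without Cis3d replicate 3, and the Mrps median to 0.047 without Cis7d replicate 2 and 0.15 without Cis7d replicate 3. On the median-of-ratios scale 19 Mrpl genes were higher and 5 lower, and 12 Mrps genes were higher and 3 lower, beside 27.3% higher and 27.3% lower of all genes. The groups did not overlap for 14 Mrpl genes that were higher and 10 that were lower, and for 9 and 9 Mrps genes, beside 25.2% higher and 39.2% lower of all genes. The largest difference in each direction was -1.67 ± 0.16 for Mrpl33 (adjusted p = 6.81e-05) and 1.38 ± 0.15 for Mrps36 (adjusted p = 0.00011). Mrpl52 differed by -1.42 ± 0.15 (adjusted p = 8.55e-05), Mrps18b by -1.24 ± 0.19 (adjusted p = 0.000588) and Mrpl34 by 1.06 ± 0.16 (adjusted p = 0.000683). The count of lower Mrps genes came to 2 without Cis3d replicate 2, Cis7d replicate 1 or Cis7d replicate 3, and to 3 without Cis3d replicate 3 or Cis7d replicate 2, against 5 with all libraries. For these smaller fits the shares of all genes called are likewise not given.

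Members were also divided by the origin of their products. Among 46 genes of bacterial-type proteins 14 were lower and 9 higher at day 3, with a median of -0.25. Among 29 genes listed as encoding proteins found only in mitochondria 12 were lower and 5 higher, with a median of -0.13. The latter list holds Mrps18b, which rose, although its product has a bacterial relative. Mrps18a, Mrps30 and Mrps36 are in neither list. Over all genes tested 20.6% were lower and 39.3% higher, with a median of 0.25. At day 7 the medians were -0.18 and -0.12, beside 0.06 for all genes. After removal of the GC content and length trends the medians were -0.20 and -0.17 at day 3, beside 0.24 for all genes. At day 7 they were -0.03 and 0.02, beside 0.06. On the median-of-ratios scale 54.3% of the first list and 62.1% of the second were lower at day 3, beside 28.8% of all genes. The medians were then -0.53 and -0.41. The difference between these lists was not tested.

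The fold changes of the members varied with the base composition of their transcripts. Across the 78 genes, Pearson's r between log2 fold change and GC content of the longest transcript was -0.38 at day 3 and -0.63 at day 7, and across 13707 tested genes it was -0.17 and -0.60. These are correlations across genes that share the same libraries, and genes are not independent replicates. The 11 members lower at day 7 had a median GC content of 55.4%, against 45.0% for the 8 that were higher. Removing a smooth trend with GC content and one with length from each library left 4 Mrpl genes lower and 1 higher at day 7, and 2 Mrps genes lower and 1 higher, beside 1.98% lower and 4.26% higher of all genes. The medians were then 0.00 (Mrpl) and -0.03 (Mrps), and r across members was 0.39, of the opposite sign. Under this correction the day 7 calls of Mrps7 (-0.03, adjusted p = 0.863), Mrps11 (-0.01, adjusted p = 0.979) and Mrps12 (-0.04, adjusted p = 0.879) were lost. At day 3 the same step left 17 Mrpl genes lower and 11 higher, and 12 Mrps genes lower and 5 higher, with medians of -0.17 and -0.21, beside 19.5% lower and 38.3% higher of all genes. For day 7 against day 3 it left 15 Mrpl genes higher and 10 lower, and 12 Mrps genes higher and 4 lower, beside 21% higher and 34.6% lower of all genes. Whether these trends arise in the tissue or in the libraries was not tested.

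**Figure D4:**
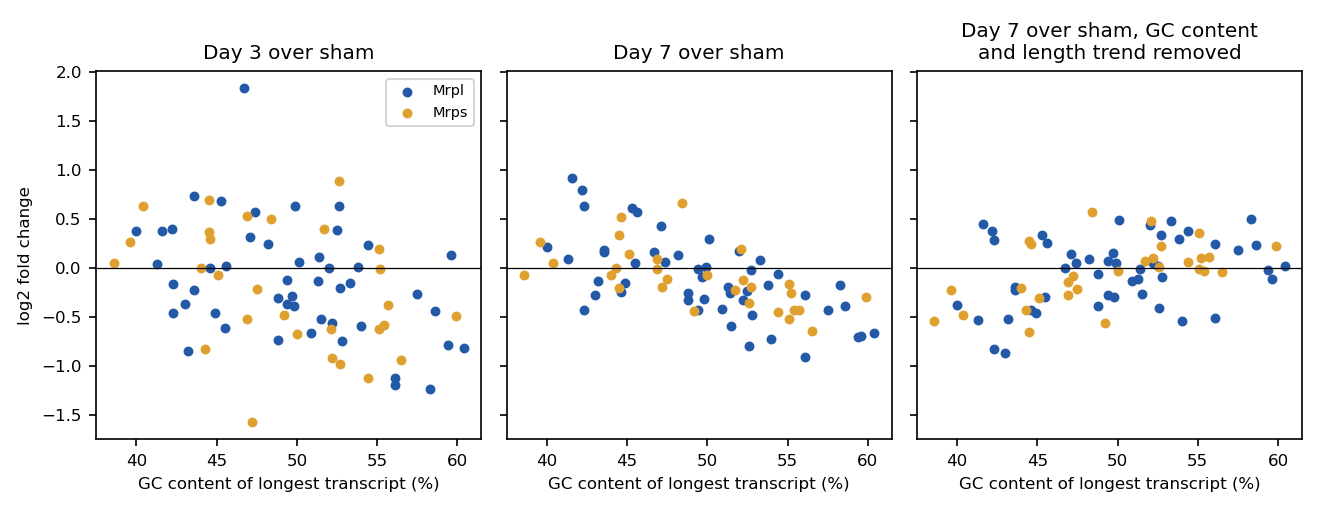
Log2 fold change over sham against GC content of the longest transcript (percent) for the 78 members, Mrpl and Mrps genes in separate colours: day 3 (left), day 7 (middle) and day 7 after removal of the GC content and length trends (right). The downward slope at day 7 (r = -0.63) is absent after removal (r = 0.39).

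Members lie on 17 chromosomes, 11 of them on chromosome 11, and many share their start region with another gene. A protein-coding gene on the opposite strand starts within 1000 bases, head to head, of 23 members (29.5%), against 7.9% of all protein-coding genes and 11.9% of those tested. Mrps12 starts 172 bases from Sars2, the mitochondrial seryl-tRNA synthetase, which fell by 0.55 at day 3 (adjusted p = 0.0088). Mrps27 starts 81 bases from Ptcd2, which differed by -0.55 (adjusted p = 0.0116), and Mrps18b starts 45 bases from Ppp1r10, which differed by 0.71 (adjusted p = 0.0118). Each of these partners moved in the direction of its member. Mrpl50 starts 83 bases from Zfp189, which differed by 0.56 at day 3 (adjusted p = 0.0337), while Mrpl50 itself was lower. Mrpl30 starts 66 bases from Mitd1, which rose by 1.32 at day 3 (adjusted p = 0.000308), while Mrpl30 differed by -0.0027. These pairs were picked after their values were seen, and whether partners share a direction over all pairs was not tested.

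Models of 26 members overlap another protein-coding gene, 23 of them on the opposite strand and 4 on the same strand. Whether counting used strand is not given in the sources used here, and overlapping genes may share reads. Mrps6 overlaps Slc5a3, the myo-inositol transporter gene, on the same strand. Mrps6 had 55.91, 89.36 and 56.81 FPKM at day 3, 42.1, 51.99 and 34.71 at day 7 and 71.92, 44.92 and 37.89 in sham, with overlapping groups at day 3 (0.40 ± 0.27, adjusted p = 0.239). Slc5a3 itself rose by 1.30 at day 3 (adjusted p = 0.00126). Mrpl46 and Mrps11, both members, overlap each other on opposite strands, and Mrpl46 differed from sham by -0.20 at day 3 (adjusted p = 0.129).

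The other parts of mitochondrial translation were read for comparison. Of 15 mitochondrial translation factors 7 were lower and 1 higher at day 3, with a median of -0.34, and 7 were higher and 1 lower at day 7, with a median of 0.25. Over all genes tested 20.6% were lower and 39.3% higher at day 3, and 19.3% were higher and 10.4% lower at day 7. Tufm, the elongation factor that brings tRNA to the ribosome, had 22.26, 21.32 and 21.83 FPKM at day 3, 45.44, 48.08 and 50.38 at day 7 and 42.22, 65.04 and 62.83 in sham. It fell by 1.31 ± 0.16 at day 3 (adjusted p = 0.000167), and Gfm2, which splits the ribosome after termination, fell by 0.98 ± 0.13 (adjusted p = 0.00027). Of 20 aminoacyl-tRNA synthetases and related enzymes of mitochondria 6 were lower and 1 higher at day 3, and 1 was lower and 7 higher at day 7. On the median-of-ratios scale, however, 3 were higher and 2 lower at day 7, beside 16.4% higher and 16.2% lower of all genes. After removal of the GC content and length trends, 4 of the translation factors and 0 of the synthetases were higher at day 7, beside 4.26% of all genes. Gatb, a subunit of the amidotransferase that makes glutaminyl-tRNA, fell by 1.92 ± 0.12 at day 3 (adjusted p = 8.32e-06), and Fars2, the phenylalanyl-tRNA synthetase, fell by 1.70 ± 0.11 (adjusted p = 7.92e-06).

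Of 24 tested genes for assembly of the mitochondrial ribosome and modification of its rRNA, 7 were lower and 7 higher at day 3, beside 20.6% lower and 39.3% higher of all genes. On the median-of-ratios scale 10 were lower and 3 higher, beside 28.8% and 29.8%. Mettl15, which methylates the small-subunit rRNA, fell by 1.20 ± 0.14 at day 3 (adjusted p = 0.000158), and Mrm2, which methylates the large-subunit rRNA, fell by 0.95 ± 0.12 (adjusted p = 0.000229). Both are named for having the largest called changes of this list, whose median was 0.09 and whose highest value was 0.82. Of the 5 mitochondrial ribosomal proteins that carry another symbol, Chchd1 had 53.29, 51.96 and 46.74 FPKM at day 3, 26.54, 31.8 and 26.56 at day 7 and 26.88, 24.3 and 24.15 in sham, and rose by 0.98 ± 0.11 at day 3 (adjusted p = 0.000121). Gadd45gip1, a large-subunit protein, had 13.88, 13.1 and 11.04 FPKM at day 3, 10.98, 11.29 and 9.68 at day 7 and 22.25, 23.72 and 18.89 in sham. All treated libraries lay below all sham libraries, with log2 fold changes of -0.73 ± 0.13 at day 3 (adjusted p = 0.0013) and -0.95 ± 0.13 at day 7 (adjusted p = 0.00193).

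Cytosolic ribosomal protein genes (76) were higher in 64 and lower in 1 at day 3, with a median of 0.70, and lower in 41 and higher in 0 at day 7, with a median of -0.47. Over all genes tested 39.3% were higher and 20.6% lower at day 3, and 10.4% were lower and 19.3% higher at day 7. On the median-of-ratios scale 46 cytosolic genes were higher and 3 lower at day 3, beside 29.8% and 28.8% of all genes, and 54 were lower at day 7, beside 16.2%. The median FPKM of cytosolic over that of mitochondrial ribosomal protein genes was 13.1 to 15.5 at day 3, 5.45 to 6.04 at day 7 and 5.96 to 7.18 in sham. Nuclear genes of respiratory complex I (37) were lower in 33 and higher in 1 at day 3, with a median of -0.72, and lower in 15 and higher in 2 at day 7, with a median of -0.21. After removal of the GC content and length trends, 13 cytosolic genes and 4 complex I genes were lower at day 7, beside 1.98% of all genes. The Mrpl and Mrps medians at day 3 (-0.17 and -0.22) lay between those of these families.

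**Figure D5:**
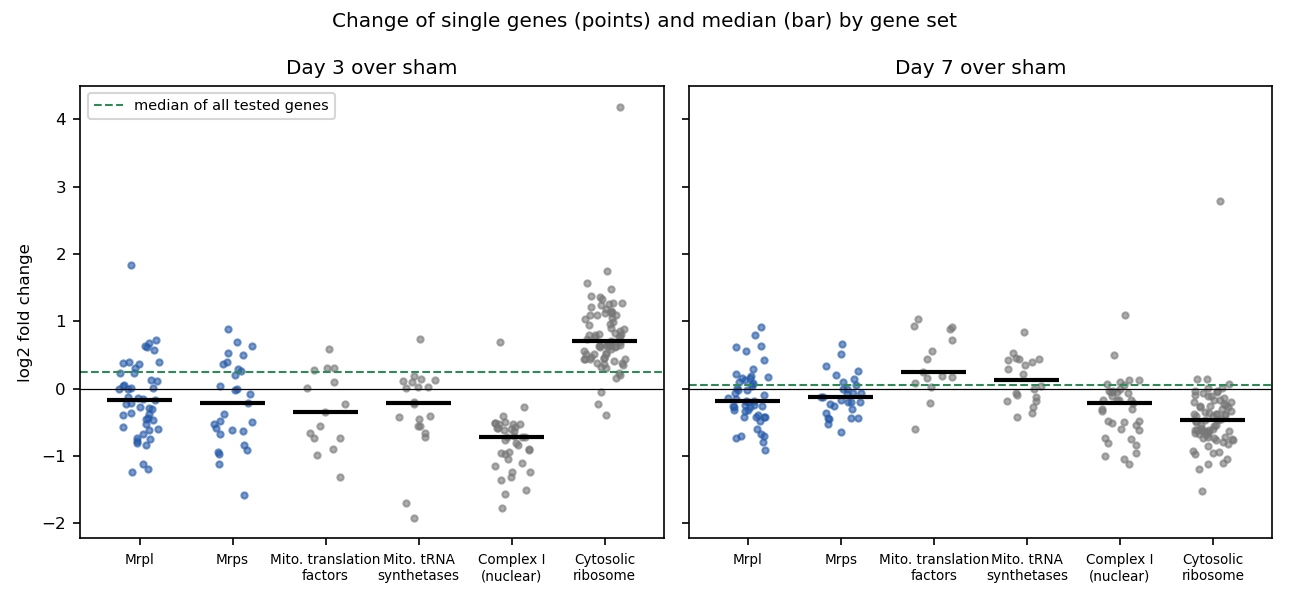
Log2 fold change over sham of single genes (points) with the median of each gene set (bars), at day 3 (left) and day 7 (right); the dashed line is the median of all tested genes. At day 3 the Mrpl and Mrps medians (-0.17 and -0.22) lie between those of complex I genes (-0.72) and cytosolic ribosomal protein genes (0.70).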

How the data were processed

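Whole-kidney RNA of 9 mouse samples (3 groups of 3) was read as the deposited FPKM, which the authors computed and gave to 2 decimals. Per the labels' protocols, RNA had an integrity number above 7.0, and 2 µg went into a directional NEB kit. The submitters' processing notes name StringTie, HISAT, FastQC 0.10.1 and the build GRCm38 but give them no roles. For the strand setting, RNA selection, filters and annotation release, the entry is "not given in the sources used here".

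Of the gene identifiers, 55144 matched a GENCODE M21 symbol and 241 did not. The 13718 genes that reached 1 FPKM in 3 or more libraries were tested with limma 3.58.1 in R 4.3.3 on log2(FPKM + 1), a scale that understates changes of weakly expressed genes. The fit used all 9 libraries, group as the only term and eBayes with a mean-variance trend. Tests were two-sided at a threshold of 0.05 after Benjamini-Hochberg adjustment over the 13718 genes, and the procedure was tested on simulated data. Errors of fold changes are standard errors from limma. The labels do not say that libraries came from separate animals, so p-values measure only the spread between them, which may be technical.

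Members and gene lists were chosen with earlier results of these data known. Members are given in full if they were among the 4 largest called rises or falls per subunit at day 3, the 3 largest called changes at day 7 or the 2 most abundant in sham, or if their product has another place or role than the symbol says, with the 3 Mrps18 paralogues. From each compared list of mitochondrial translation, transcription and regulators, up to 2 called genes with the largest change at day 3 are named. They need not be typical of their list. Alternatives were another pseudocount, other filters, median-of-ratios and quantile scaling, robust variance, fits to only the 6 libraries compared, a replicate block, a natural spline correction (5 degrees of freedom) for GC content and length, a 2-fold minimum and leaving out each library.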

Additional observations from a re-analysis of the deposited data

Results flagged for a closer look

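For 14 of the members described in full, the effect at day 7 differed from the effect at day 3, by the limma test of day 7 against day 3. Both effects are against the same sham libraries. The effect at day 7 minus that at day 3, on the log2 scale, was 1.38 for Mrps36 (adjusted p = 0.00011), 1.06 for Mrpl34 (adjusted p = 0.000683), 0.85 for Mrpl12 (adjusted p = 0.00351), 0.79 for Mrps27 (adjusted p = 0.000511), 0.71 for Mrpl42 (adjusted p = 0.00285) and 0.68 for Mrps28 (adjusted p = 0.00675). These 6 genes were below sham at day 3. It was 0.54 for Mrpl1 (adjusted p = 0.0212) and 0.30 for Mrps12 (adjusted p = 0.0414). The Mrpl1 call was lost without Cis3d replicate 2 (adjusted p = 0.0728), Cis3d replicate 3 (adjusted p = 0.0688) or Cis7d replicate 2 (adjusted p = 0.0669). The Mrps12 call was lost without any day 3 library or without Cis7d replicate 1 or 3 (adjusted p between 0.0565 and 0.149).

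The effect at day 7 was lower than at day 3 in 6 genes that were above sham at day 3. The difference was -1.67 for Mrpl33, -1.42 for Mrpl52, -1.24 for Mrps18b, -0.62 for Mrpl45 (adjusted p = 0.00132), -0.58 for Mrps30 (adjusted p = 0.00171) and -0.54 for Mrpl35 (adjusted p = 0.00197).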

How the results depend on the processing

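Set against the alternatives, 1034 values of the described members kept direction and call, 41 lost and 27 gained a call, and 2 reversed. The reversals were Mrps18a at day 3 with the replicate block and the GC content and length correction (0.27, adjusted p = 0.0415) and Mrps30 at day 7 with that correction (-0.47, adjusted p = 0.0473). The cause was not tested.

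Counts are given as lower and higher. A 2-fold minimum left Mrpl 3 and 1 and Mrps 2 and 0 at day 3, beside 1284 and 2347 of all 13718 genes tested. At day 7 it left Mrpl 0 and 0 and Mrps 0 and 0, beside 178 and 386. For day 7 against day 3 it left Mrpl 2 and 2 and Mrps 1 and 1, beside 1970 and 1309. Counting groups that do not overlap gave Mrpl 20 and 11 and Mrps 9 lower at day 7, and Mrps 9 lower for day 7 against day 3. Median-of-ratios scaling gave, at day 3, Mrpl 27 and 5 with a median of -0.43 and a Mrps median of -0.48. At day 7 it gave 15 Mrpl and 7 Mrps lower, with medians of -0.27 and -0.23. For day 7 against day 3 it gave Mrpl 5 and 19 and Mrps 3 lower, with medians of 0.24 and 0.26. Quantile normalization gave, at day 3, 25 Mrpl lower and 3 Mrps higher, with medians of -0.31 and -0.46. Of all genes 28.5% were then lower and 29.9% higher, with a median of 0.03. At day 7 quantile normalization gave a Mrpl median of -0.12. For day 7 against day 3 it gave 20 Mrpl higher and 2 Mrps lower, with medians of 0.24 and 0.26. Of all genes 27.8% were then higher and 28.0% lower, with a median of -0.02. The GC content and length correction gave Mrpl 4 and 1 and Mrps 2 and 1 at day 7, with medians of 0.0048 and -0.033. Its Mrpl median for day 7 against day 3 was 0.11, against 0.083 with a 5 FPKM filter and 0.078 with a pseudocount of 0.1.

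Same-numbered libraries of 2 groups deviated together with correlations of -0.054 to 0.238, and not every library correlated best with its own number, so the numbers were not taken to pair libraries. With the replicate block alone, the lower and higher counts were Mrpl 16 and 9 and Mrps 14 and 6 at day 3, Mrpl 9 and 6 and Mrps 5 and 2 at day 7, and Mrpl 9 and 10 and Mrps 5 and 8 for day 7 against day 3. With the replicate block and the GC content and length correction, they were Mrpl 2 and 0 and Mrps 1 and 0 at day 7, with medians of 0.0048 and -0.033, and the Mrpl median for day 7 against day 3 was 0.11. Shares of all genes called with the replicate block are not given, so these counts are not read as particular to the members.

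Leaving out each library gave, at day 3, 13 to 19 Mrpl lower and 6 to 10 higher (medians -0.25 to -0.12), and 11 to 14 Mrps lower and 4 to 8 higher (medians -0.34 to -0.12). At day 7 it gave 4 to 9 Mrpl lower and 4 to 6 higher (medians -0.18 to -0.11), and 1 to 4 Mrps lower and 2 to 2 higher (medians -0.17 to -0.016). For day 7 against day 3 it gave 7 to 9 Mrpl lower and 7 to 11 higher (medians 0.0037 to 0.11), and 2 to 5 Mrps lower and 7 to 9 higher (medians 0.047 to 0.15). Shares of all genes called in these smaller fits are not given, so the shifts in counts are not read as particular to the members.

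Without counts, depth cannot be set against these values. With 3 libraries a group, a member that did not pass is not shown to be unchanged.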

Other observations

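The rRNAs of the mitochondrial ribosome, encoded in mitochondrial DNA, were high at day 3. Listed as mt-Rnr1, the small-subunit rRNA had 4101.22, 9203.06 and 10336.4 FPKM at day 3, 933.32, 829.07 and 910.99 at day 7 and 1087.99, 893.08 and 1454.21 in sham. Its log2 fold change at day 3 was 2.70 (adjusted p = 0.000177). The large-subunit rRNA, mt-Rnr2, had 2752.79, 5941.18 and 7701.76 FPKM at day 3, 1013.99, 858.65 and 940.37 at day 7 and 700.14, 566.15 and 1017.91 in sham, with a log2 fold change at day 3 of 2.76 (adjusted p = 0.000244). Every day 3 library lay above every other library in both. Of 15 mitochondrially encoded genes, these rRNAs included, 4 were higher and 6 lower at day 3, with a median of -0.21. Over all genes tested 39.3% were higher and 20.6% lower. On the median-of-ratios scale 2 were higher and 8 lower, beside 29.8% and 28.8%. With quantile normalization 4 were higher and 3 lower, with a median of 0.17, beside 29.9% and 28.5%. The step that selected RNA for sequencing is not given in the sources used here, and its part in these levels was not tested.

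Of 11 genes for transcription of mitochondrial DNA and processing of its RNA, 5 were higher and 2 lower at day 3, and 6 were higher and 2 lower at day 7, while on the median-of-ratios scale 3 were higher and 5 lower at day 3. Over all genes tested 39.3% were higher and 20.6% lower at day 3, 19.3% were higher and 10.4% lower at day 7, and on the median-of-ratios scale 29.8% were higher and 28.8% lower at day 3. After removal of the GC content and length trends, 1 of the 11 was higher and 0 lower at day 7. Of all genes 4.26% were then higher and 1.98% lower. Trmt10c, a subunit of mitochondrial RNase P, had 9.99, 14.01 and 15.26 FPKM at day 3, 8.91, 8.82 and 6.67 at day 7 and 3.72, 3.67 and 3.98 in sham, and rose by 1.54 ± 0.17 at day 3 (adjusted p = 9.34e-05). Mterf1a, a termination factor, rose by 1.06 ± 0.17 (adjusted p = 0.000715). Of 9 tested regulators of nuclear genes for mitochondria, 5 were higher and 3 lower at day 3, beside the same 39.3% and 20.6% of all genes. Myc had 20.14, 15.33 and 16.26 FPKM at day 3, 3.03, 2.99 and 1.22 at day 7 and 7.64, 4.23 and 5.31 in sham, and Gabpb1, a subunit of GABP, had 4.64, 4.75 and 4.68 FPKM at day 3, 1.68, 2.51 and 1.71 at day 7 and 1.86, 1.46 and 0.65 in sham. They rose by 1.46 ± 0.27 (Myc, adjusted p = 0.00147) and 1.33 ± 0.20 (Gabpb1, adjusted p = 0.000557) at day 3. Nrf1 itself stayed below the filter on low values.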
